A study of Oryza sativa with 12 samples.

Results

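The mitochondrial carrier family of rice was followed in roots and shoots of plants that overexpress ZAXINONE SYNTHASE and of their wild type. Its members were taken as every gene model whose deposited description holds the Pfam mitochondrial carrier domain, which gave 63 of 57501 gene models and used no measured value. Poly(A)-selected RNA was sequenced from 12 libraries of hydroponically grown plants aged 21 days, 3 in each of 4 groups. These groups were roots of the overexpressing line OX6, roots of wild-type (WT) Nipponbare, shoots of OX6 and shoots of WT Nipponbare. ZAS is a carotenoid cleavage enzyme that forms the apocarotenoid zaxinone. Only 1 overexpressing line was sequenced, so an effect of the transgene cannot be told apart from anything else in which OX6 and Nipponbare differ. The promoter of the transgene is not given in the sources used here. The labels are silent on whether the 3 replicates of a group were different plants. The spread behind each p-value may therefore be partly or wholly technical.

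Mitochondrial carriers are small membrane proteins, built of repeats of one module, that exchange solutes across the inner mitochondrial membrane. Their substrates include adenine nucleotides, phosphate, di- and tricarboxylates, amino acids, cofactors and iron. Some plant members work in plastids, peroxisomes or the endoplasmic reticulum, so the family name says more about protein structure than about location. In leaves, carriers move metabolites of photorespiration and respiration between organelles, and in roots they supply the respiration that drives nutrient uptake.

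The deposited names of the closest homologue were used to sort the 63 models into 7 classes. Adenine nucleotide carriers made up 17 models, cofactor carriers 11, carboxylate carriers and uncoupling proteins 9, amino acid and carnitine-like carriers 8, phosphate carriers 6, carriers of iron and other metals 4, and other or unnamed models 8. The homologue names come mostly from other species and are not evidence of transport activity in rice. LOC_Os05g46230 carries the name Nucleosome assembly protein 1;2 and a nucleosome assembly domain beside the carrier domain, so its counts may not report a carrier transcript. It also overlaps the carrier model LOC_Os05g46220 on the opposite strand by 1778 bases. Another 3 members overlap a model outside the family. LOC_Os11g01270 and LOC_Os12g01240, both named as a chloroplast S-adenosylmethionine carrier, lie near the ends of chromosomes 11 and 12, which are near-identical duplicates in rice, so how their reads were divided is uncertain.

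Total counts were 32269044 to 62910092 per library. The overexpressed gene, LOC_Os09g15240, had 12637 to 14246 counts in OX6 roots against 109 to 124 in WT roots, and 51763 to 64950 counts in OX6 shoots against 5 to 26 in WT shoots. These ranges fit the genotype labels. A list of 18 models of the small Rubisco subunit and chlorophyll-binding proteins took 11.1% to 11.6% of counts in OX6 shoots, 12.7% to 14% in WT shoots and at most 0.0106% in any root library. The 2 root marker models, the silicon channel NIP2-1 and LOC_Os02g44310, took 0.574% to 0.640% of counts in OX6 roots, 0.553% to 0.604% in WT roots and at most 0.00352% in any shoot library. The labelled organs therefore carried their own markers, and the shoot list was lower in every OX6 shoot library than in any WT shoot library.

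At least 1 read was counted in some library for 62 of the 63 members, the exception being LOC_Os07g24060, named Mitochondrial substrate carrier family protein P. The same 61 members passed the filter on low counts in roots alone, in shoots alone and over all 12 libraries. LOC_Os02g10800, named as the adenine nucleotide transporter BT1, did not pass, with 2, 2 and 0 counts in OX6 roots, 8, 3 and 0 counts in WT roots and no count in any shoot library. Levels are given as RPKM (reads per kilobase of the deposited gene length, scaled for depth over the 12 libraries), which allows comparison between genes. The family summed to 1525 ± 33.1 RPKM in OX6 roots, 1541 ± 21.7 in WT roots, 1407 ± 2.16 in OX6 shoots and 1498 ± 73.6 in WT shoots (SD, n = 3 each). Without scaling or length, the family took 0.326% to 0.335% of counts in OX6 roots and 0.327% to 0.336% in WT roots, against 0.229% to 0.232% in OX6 shoots and 0.226% to 0.246% in WT shoots, so every root library was above every shoot library. Shoots had more members at moderate levels. In OX6 roots 26 members averaged at least 10 RPKM, in WT roots 25, in OX6 shoots 35 and in WT shoots 34. The 5 most abundant members held 59.5% of the summed RPKM in OX6 roots and 59.9% in WT roots, against 37.6% in OX6 shoots and 38.8% in WT shoots.

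The single most abundant carrier in every group was LOC_Os02g48720 (chromosome 2, 29821936 to 29825336, plus strand), named as the mitochondrial ADP,ATP carrier, the exporter of ATP from the matrix. Its levels were 407, 389 and 407 RPKM in OX6 roots and 426, 410 and 408 RPKM in WT roots. Shoots held 149, 161 and 153 RPKM in OX6 and 162, 173 and 205 RPKM in WT. Every root library was above every shoot library. This one gene supplied 26.3% of the family's RPKM in OX6 roots, 26.9% in WT roots, 10.96% in OX6 shoots and 12.01% in WT shoots. Among all genes tested in each organ it ranked at 145 in roots and 583 in shoots. At the other end, LOC_Os09g38100, named as phosphate carrier 1, averaged under 1 RPKM in all 4 groups, from 0.151 in OX6 roots to 0.723 in OX6 shoots.

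**Figure D1:**
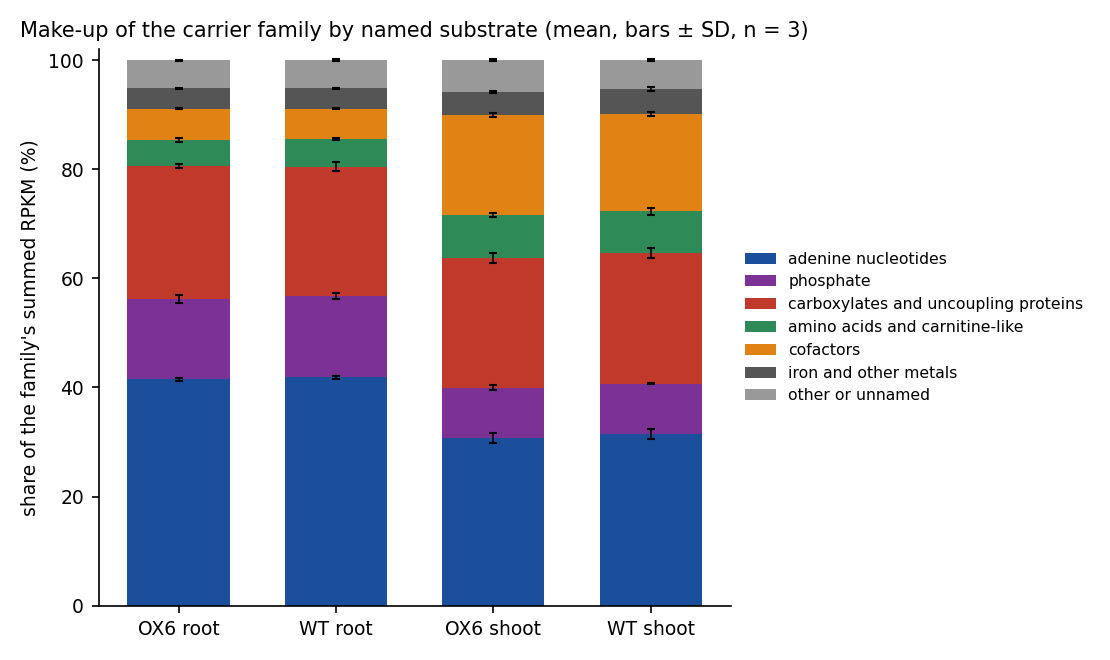
Share of the family's summed RPKM (y axis, percent) in each of the 7 substrate classes, in stacked bars for the 4 groups. Segments are means of 3 libraries and error bars are 1 SD of the segment below. Adenine nucleotide carriers held 41.5% in OX6 roots and 41.8% in WT roots, against 30.7% in OX6 shoots and 31.4% in WT shoots, and cofactor carriers 5.78% and 5.51% in the roots against 18.4% and 17.8% in the shoots.

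The shares of adenine nucleotide, cofactor, phosphate, and amino acid and carnitine-like carriers differed between organs far more than between genotypes. Cofactor carriers took 5.78% of the family's RPKM in OX6 roots and 5.51% in WT roots, against 18.4% in OX6 shoots and 17.8% in WT shoots. Phosphate carriers went the other way, with 14.7% in OX6 roots and 14.9% in WT roots against 9.21% in OX6 shoots and 9.26% in WT shoots. Carboxylate carriers and uncoupling proteins held 24.4%, 23.7%, 23.8% and 24.0% in OX6 roots, WT roots, OX6 shoots and WT shoots, a share that hardly moved although the members behind it were not the same in roots and shoots. These shares are descriptions without a test. In bulk organs, fewer cells of a type and less RNA per cell cannot be told apart, here and in all comparisons that follow.

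The first question the design poses is what ZAS overexpression changed within an organ. In roots 1 of the 61 tested members was called (adjusted p under 0.05, edgeR's quasi-likelihood test with Benjamini-Hochberg adjustment over all 26574 genes tested), which is 1.64% of members beside 2.83% of all genes. It was lower in OX6, as were 1.64% of all genes, and no member was higher, against 1.19% of all genes. In shoots 3 of 61 were called, 1 higher and 2 lower in OX6, which is 4.92% beside 5.64% of the 26251 genes tested. By direction these were 1.64% of members higher beside 3.18% of genes, and 3.28% lower beside 2.46%. The genotype-by-organ interaction, which is the OX6 effect in roots minus that in shoots, called 1 of 61 members, 1.64% beside 1.97% of genes. Its sign was negative, as for 1.28% of genes, and no member was called with a positive one, against 0.692% of genes. All of these shares were near the background. At an unadjusted p under 0.05 there were 2 members in roots (3.28%, beside 13.6% of all genes), 10 in shoots (16.4%, beside 18.6%) and 9 in the interaction (14.8%, beside 13.3%). The median log2 fold change of members was 0.0144 in roots, against 0.00242 for all genes, and 0.00299 in shoots, against -0.00566 for all genes. The members' absolute log2 fold change was under 0.25 for 57 of 61 in roots and 45 of 61 in shoots.

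**Figure D2:**
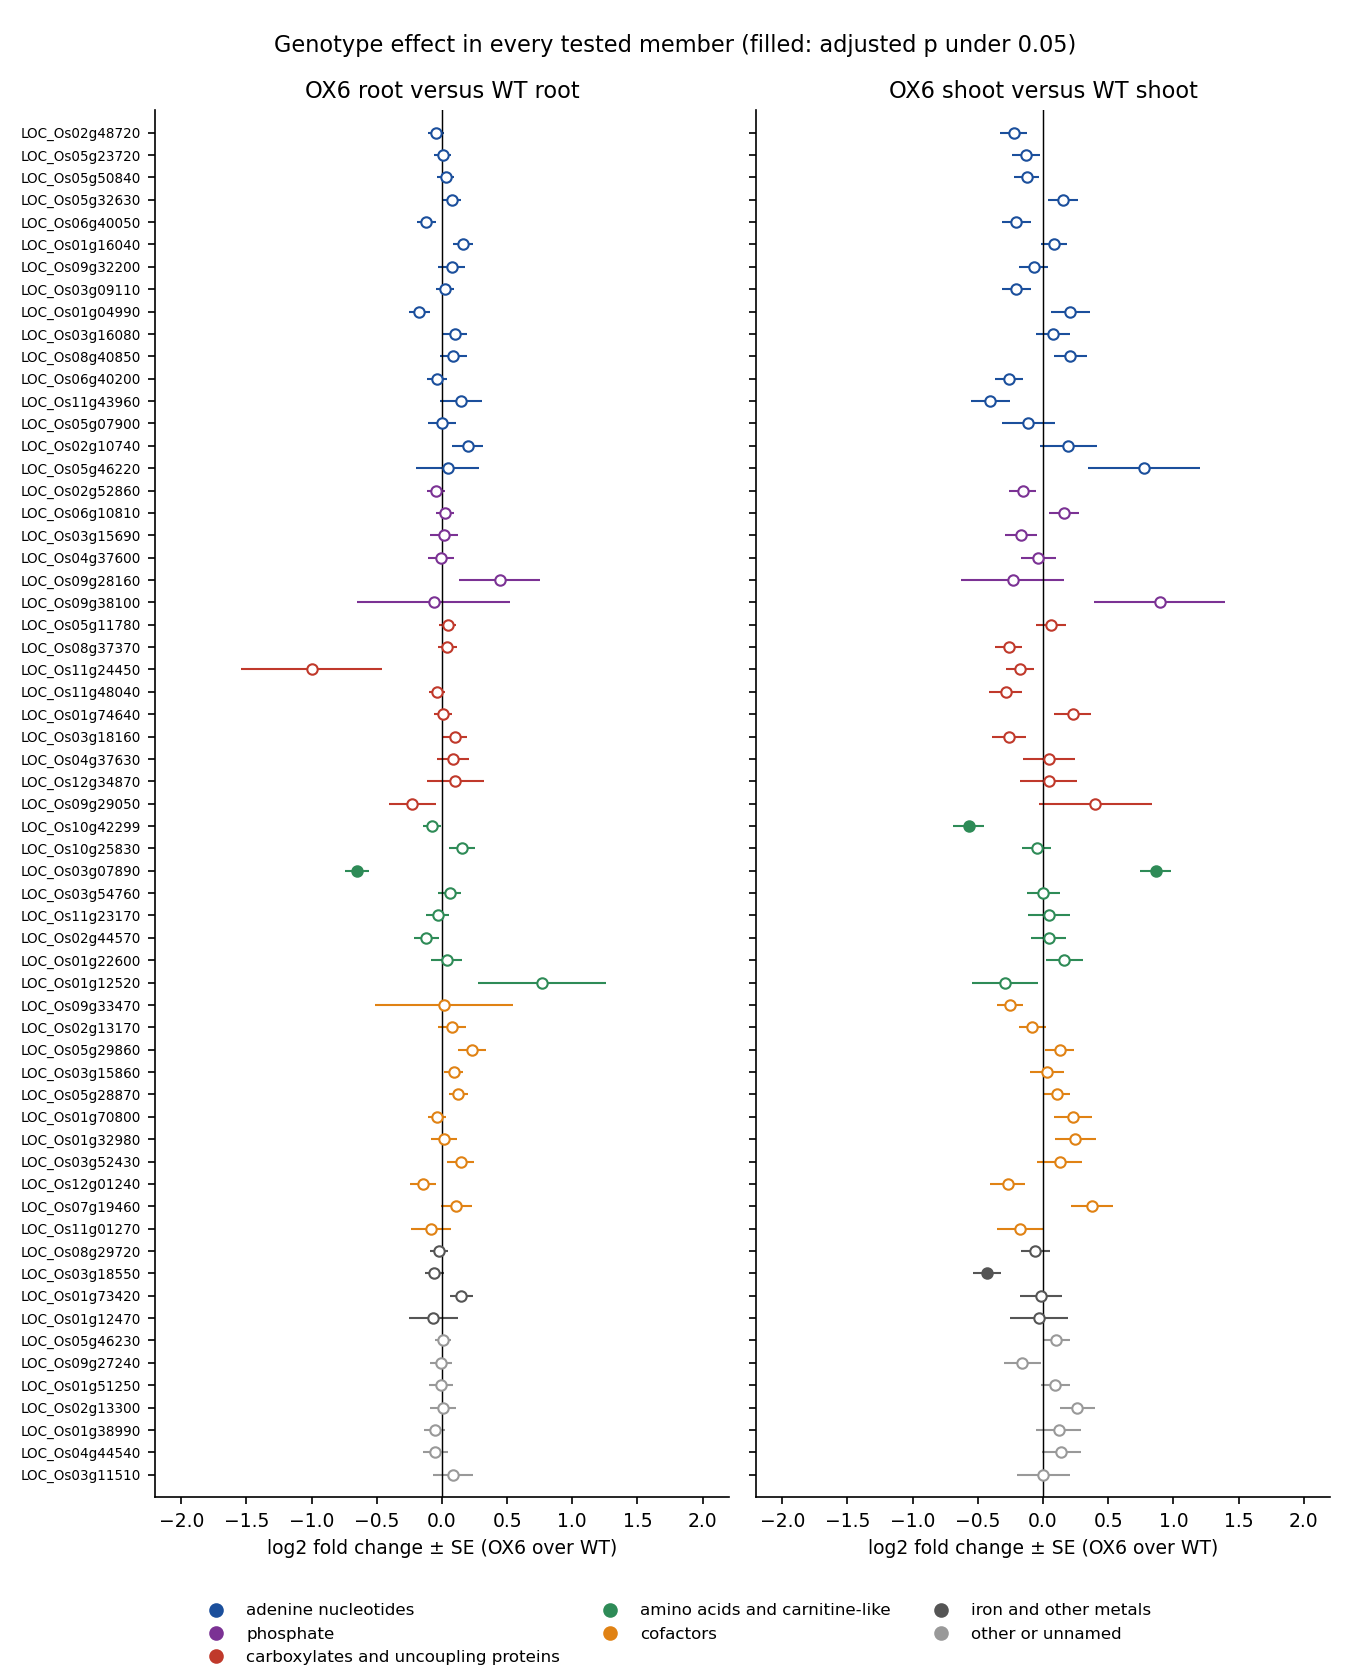
Log2 fold change of OX6 over WT for each tested carrier in roots and in shoots, grouped by substrate class, with bars of 1 SE and filled points for called members. Most members lie within 0.25 of 0, and LOC_Os03g07890 stands at -0.65 in roots and 0.87 in shoots.

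Among the 8 amino acid and carnitine-like carriers, 2 genes were called between genotypes. LOC_Os03g07890 was called in roots and shoots, and LOC_Os10g42299 in shoots. Of this small class, 12.5% was thus called in roots, beside 2.83% of all genes, and 25% in shoots, beside 5.64%. The gene called in both organs was LOC_Os03g07890 (chromosome 3, 4014426 to 4016478, plus strand), named Solute carrier family 25 member 44. In mammals SLC25A44 carries branched-chain amino acids into mitochondria, and its substrate in rice is not given by the file. In CPM scaled within the organ, OX6 roots had 27.1, 26.5 and 21.1, against 36.4, 40.3 and 40.3 in WT roots. OX6 shoots had 28.1, 30.8 and 31.6 CPM, against 18.1, 14.9 and 16.8 CPM in WT shoots. The genotypes did not overlap in either organ, and OX6 was the lower one in roots and the higher one in shoots. Lack of overlap was not particular to called members. It held for 10 of the 61 tested members in roots and 17 of 61 in shoots, and its share over all genes was not counted.

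The root difference of LOC_Os03g07890 was -0.65 ± 0.0919 on the log2 scale (SE, n = 3 each; edgeR adjusted p = 0.000607), with all 3 OX6 root libraries below all 3 WT root libraries. Its shoot difference was 0.87 ± 0.119 (edgeR adjusted p = 0.000166). The difference between these effects was itself tested and came to -1.52 ± 0.156 (edgeR adjusted p = 2.51e-05). As a result the organ order of this gene was opposite in the 2 genotypes. In OX6 the root level of 13.6 ± 1.86 RPKM was below the shoot level of 22.2 ± 1.35 RPKM, a log2 difference of -0.72 (edgeR adjusted p = 1.27e-05). In WT the root level of 21.4 ± 1.25 RPKM was above the shoot level of 12.2 ± 1.14 RPKM, a log2 difference of 0.80 (edgeR adjusted p = 3.87e-06). The level in OX6 roots lay near that of WT shoots, and the level in OX6 shoots near that of WT roots, and neither of these pairs was tested. The call was made under every one of 15 alternatives in roots, 15 in shoots and 20 for the interaction, with a highest adjusted p of 0.00683, 0.00392 and 0.00019 in that order.

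**Figure D3:**
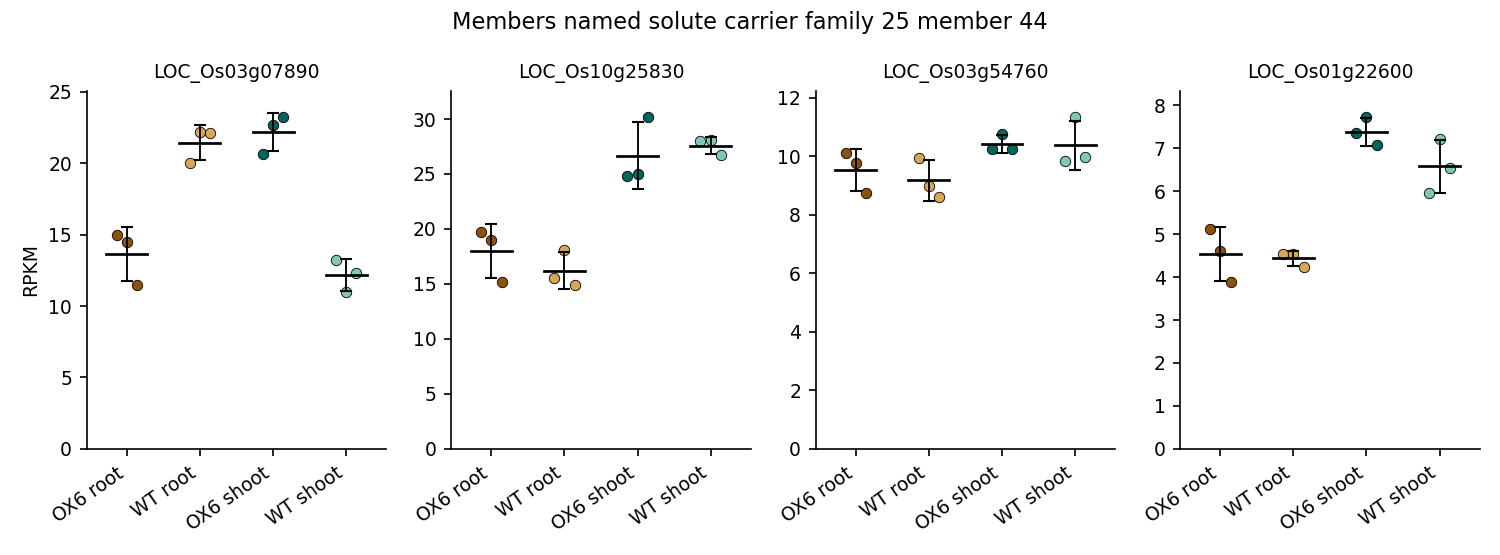
RPKM of the 4 members named Solute carrier family 25 member 44, on an axis of its own for each gene, with points for the 3 libraries of each group, lines at the mean and error bars of 1 SD. LOC_Os03g07890 averaged 13.6 RPKM in OX6 roots, 21.4 in WT roots, 22.2 in OX6 shoots and 12.2 in WT shoots, while the other members show no such crossing.

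The same homologue name is carried by 3 more members, none of which was called between genotypes. LOC_Os10g25830 averaged 18.0 ± 2.44 RPKM in OX6 roots against 16.2 ± 1.68 in WT roots, and 26.7 ± 3.03 in OX6 shoots against 27.6 ± 0.751 in WT shoots. LOC_Os03g54760 stood at 9.53 ± 0.705 RPKM in OX6 roots and 9.18 ± 0.695 in WT roots, and at 10.4 RPKM in shoots of both genotypes. LOC_Os01g22600 had 4.54 ± 0.626 RPKM in OX6 roots against 4.44 ± 0.171 in WT roots, and 7.38 ± 0.325 in OX6 shoots against 6.57 ± 0.624 in WT shoots. Their genotype differences lay between -0.05 and 0.16 on the log2 scale. Summed over the 4 genes, the name reached 45.7 ± 5.61 RPKM in OX6 roots against 51.2 ± 2.21 in WT roots, and 66.7 ± 3.85 in OX6 shoots against 56.7 ± 1.04 in WT shoots, so the sum moved less than the single gene.

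The other amino acid carriers were not called between genotypes. LOC_Os02g44570, named as the aspartate-glutamate carrier AGC1, averaged 3.30 RPKM in OX6 roots, 3.60 in WT roots, 8.23 in OX6 shoots and 7.98 in WT shoots. The basic amino acid carriers BAC1 and BAC2, which move arginine and ornithine in Arabidopsis, were represented by LOC_Os11g23170 and LOC_Os01g12520. BAC1 lay between 7.12 and 8.69 RPKM in the 4 groups. BAC2 was scarce in roots, with 0.360 RPKM in OX6 and 0.211 in WT, and its root log2 difference of 0.77 had an adjusted p of 0.556 in edgeR. It had 13, 16 and 16 counts in OX6 roots against 9, 6 and 11 in WT roots. The gene thus passed the low-count filter there only at OX6 levels.

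The second call in shoots was LOC_Os10g42299 (chromosome 10, 22774954 to 22780305, minus strand), named as a mitochondrial carnitine/acylcarnitine carrier-like protein. Its Arabidopsis counterpart, BOU, is needed for normal photorespiration. OX6 shoots had 81.4, 72.5 and 95.9 CPM, against 138, 116 and 117 CPM in WT shoots. The log2 fold change was -0.57 ± 0.117 (edgeR adjusted p = 0.00578), and -0.48 with an adjusted p of 0.0671 when OX6 shoot replicate 2 was left out. In roots the gene stood at 14.4 ± 0.996 RPKM in OX6 and 15.2 ± 0.417 in WT, with overlapping libraries. The interaction of 0.49 did not pass (edgeR adjusted p = 0.100), so a difference between the organs in the OX6 effect was not shown for this gene. It passed in DESeq2 (adjusted p = 0.0339) and in edgeR without WT shoot replicate 3 (adjusted p = 0.0491) or without OX6 shoot replicate 3 (adjusted p = 0.0383).

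Among the 4 metal carriers, LOC_Os03g18550 (chromosome 3, 10387991 to 10390923, plus strand), named mitoferrin after the importers of iron into mitochondria, was called lower in OX6 shoots. OX6 shoots had 85.6, 68.2 and 73.3 CPM, against 109, 96.2 and 100.9 CPM in WT shoots. The log2 fold change was -0.43 ± 0.109 (edgeR adjusted p = 0.0243). Without OX6 shoot replicate 2 the adjusted p was 0.168, and without OX6 shoot replicate 3 it was 0.138. Root levels were 12.1 ± 0.739 RPKM in OX6 and 12.6 ± 0.484 in WT. The shoot calls of LOC_Os10g42299 and LOC_Os03g18550 ran in the same direction as the shoot marker list, at 11.1% to 11.6% of counts in OX6 shoots and 12.7% to 14% in WT shoots, and both genes were more abundant in shoots than in roots. The part of that list's difference in these calls was not tested.

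The remaining metal carriers were not called between genotypes. LOC_Os08g29720, named MTM1 after a yeast carrier linked to manganese superoxide dismutase, had 33.0 ± 2.68 RPKM in OX6 roots against 33.7 ± 1.24 in WT roots, and 16.5 ± 0.978 in OX6 shoots against 17.2 ± 1.05 in WT shoots. The chloroplast mitoferrin-like LOC_Os01g73420 averaged 9.48 ± 0.309 RPKM in OX6 roots against 8.59 ± 0.380 in WT roots, where the libraries did not overlap and the log2 difference was 0.15 (edgeR adjusted p = 0.529). In shoots it had 8.72 ± 1.42 RPKM in OX6 and 8.80 ± 1.06 in WT, with overlap. The second MTM1-named gene, LOC_Os01g12470, lay between 2.03 and 3.11 RPKM.

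None of the 16 tested adenine nucleotide carriers, 11 cofactor carriers, 9 carboxylate carriers and uncoupling proteins, 6 phosphate carriers and 7 other models was called between genotypes in either organ by edgeR, DESeq2 or limma. In edgeR, counts at an unadjusted p under 0.05 in these 5 classes were 1 in roots, in the cofactor class, and 7 in shoots. The 7 were 3 adenine nucleotide carriers, 2 carboxylate carriers or uncoupling proteins and 2 cofactor carriers. Over all 61 tested members that share was 3.28% in roots, beside 13.6% of all genes. In shoots it was 16.4%, beside 18.6%, so such counts did not exceed the background. For LOC_Os02g48720 the shoot log2 fold change was -0.23 ± 0.107 (edgeR adjusted p = 0.265), and for the uncoupling protein LOC_Os11g48040 it was -0.29 ± 0.127 (edgeR adjusted p = 0.229). The endoplasmic reticulum adenylate carrier LOC_Os11g43960 had 9.28 ± 0.258 CPM in OX6 shoots and 12.3 ± 1.67 CPM in WT shoots, a log2 fold change of -0.40 with an edgeR adjusted p of 0.137. In roots, the uncalled members with the largest changes at 5 CPM or more were the S-adenosylmethionine carrier LOC_Os05g29860, at 0.23 ± 0.106 (edgeR adjusted p = 0.358), and the calcium-binding carrier LOC_Os02g10740, at 0.20 ± 0.118 (edgeR adjusted p = 0.522). Missing the threshold does not show that these genes were alike in the 2 genotypes.

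Lists of other mitochondrial and transport genes were set beside the carriers. These lists, chosen by Pfam domain, hold 8 models with the porin domain, 5 pyruvate carriers, 24 models with the domain of inner membrane import subunits, 9 small import chaperones, 3 plastid ATP/ADP translocases and 9 alternative oxidases. Some of the 24 are named as outer envelope pore proteins of the chloroplast, and LOC_Os04g33220 as the chloroplast chaperone ClpD2. In edgeR 1 of their 46 tested models was called in roots, 2.17% beside 2.83% of all genes, and 2 of 44 in shoots, 4.55% beside 5.64%, all lower in OX6. Of the 8 models with the porin domain, which forms outer membrane channels, 1 was called, LOC_Os03g20750. It is named TOM40-1 after the channel through which proteins, carrier precursors among them, enter mitochondria. Its level was 11.6 ± 0.346 RPKM in OX6 roots against 23.5 ± 0.570 in WT roots, a log2 fold change of -1.01 (edgeR adjusted p = 2.17e-07). Shoots gave 11.3 ± 1.56 RPKM in OX6 and 28.7 ± 1.45 in WT, a log2 fold change of -1.35 (edgeR adjusted p = 1.62e-06). The second TOM40-1 model, LOC_Os01g16910, was not called between genotypes, with 31.4 ± 1.05 RPKM in OX6 roots and 34.4 ± 2.60 in WT roots. Alternative oxidases of mitochondria bypass the proton-pumping part of the respiratory chain, and LOC_Os04g57320, among the 9 models, is named as a chloroplast form. Of the 9, LOC_Os02g47200, named as a mitochondrial form, was lower in OX6 shoots, at 4.46 ± 0.278 RPKM against 7.10 ± 0.908 in WT shoots (log2 fold change -0.67, edgeR adjusted p = 0.0289).

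The organ comparison asks which carriers belong to root and which to shoot. It was made within each genotype, as contrasts of the same 12-library fit, which share the spread estimated there. In OX6, 44 of the 61 tested members were called, 13 higher and 31 lower in roots than in shoots, 72.1% beside 73.8% of all genes. In WT, 45 were called, 14 higher and 31 lower in roots, 73.8% beside 73.0% of all genes. The total was thus near the background, while its split was not even. In OX6 21.3% of members were higher in roots and 50.8% lower, beside 37.3% and 36.5% of all genes, and in WT 23.0% were higher and 50.8% lower, beside 37.6% and 35.4%. The median log2 difference of members, root over shoot, was -0.32 in OX6 and -0.34 in WT, against 0.03 and 0.05 for all genes. Calls higher in roots were shared by 12 members, 92.3% of the OX6 list and 85.7% of the WT list. Calls lower in roots were shared by 28, which is 90.3% of either list. A single member, LOC_Os03g07890, was called in opposite directions in the 2 genotypes. Organ differences were also of modest size, at 1 or more on the log2 scale in 29.5% of members in OX6 and 36.1% in WT, against 49.3% and 49.2% of all genes.

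**Figure D4:**
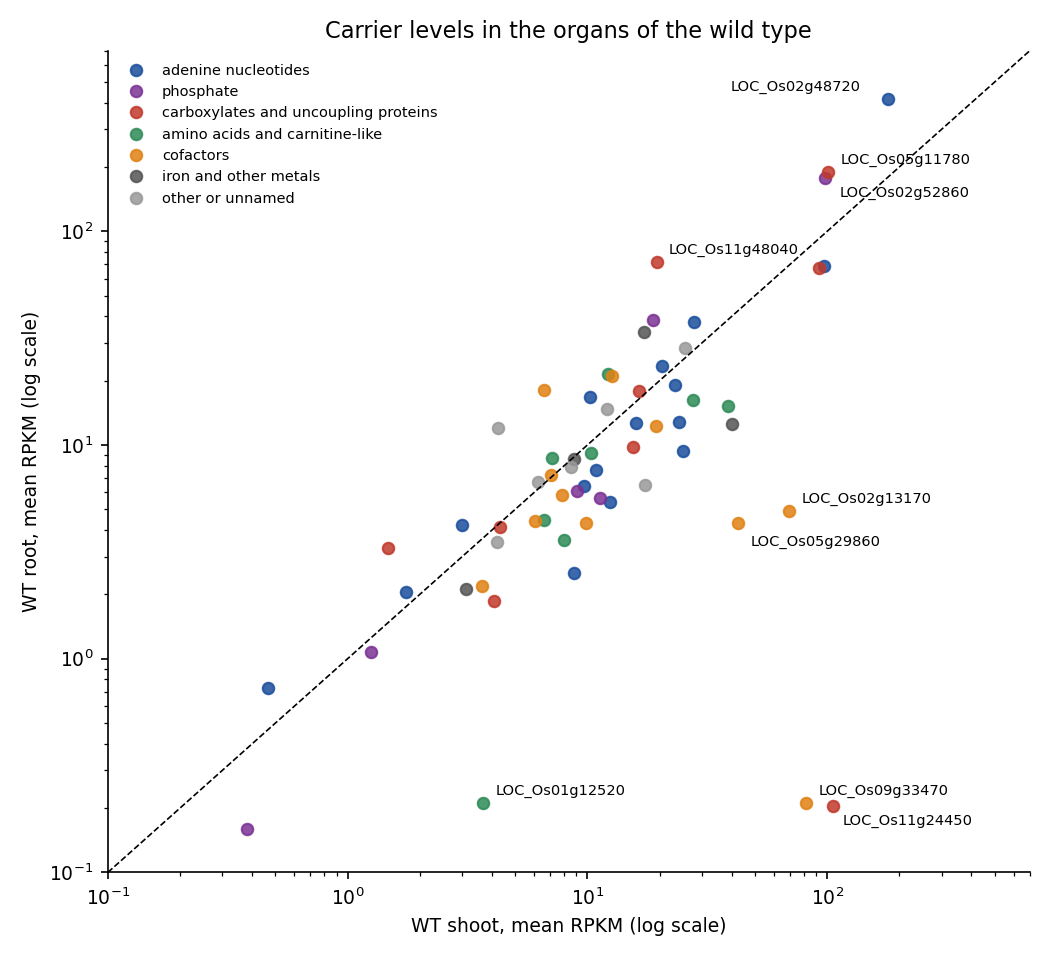
Mean RPKM of each carrier in WT roots (y axis, log scale) and WT shoots (x axis, log scale), with points coloured by substrate class and the dashed line at equal levels. LOC_Os11g24450 and LOC_Os09g33470 lie far below the line, at 0.204 and 0.212 RPKM in roots against 105 and 81.7 RPKM in shoots.

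The widest organ gap belonged to a carboxylate carrier. LOC_Os11g24450 (chromosome 11, 13941557 to 13945519, plus strand) is named DTC, a carrier that in plants exchanges dicarboxylates such as malate and oxoglutarate for tricarboxylates such as citrate. It was nearly silent in roots, with 5, 7 and 6 counts in OX6 and 13, 10 and 13 counts in WT. Shoots held 98.3, 84.6 and 96.7 RPKM in OX6 and 97.3, 103 and 116 RPKM in WT. The log2 difference, root over shoot, was -9.84 in OX6 (edgeR adjusted p = 4.21e-18) and -9.02 in WT (edgeR adjusted p = 3.70e-18). With so few root reads the size of this gap is only roughly known. Between genotypes in roots its log2 difference of -1.0 ± 0.542 did not pass (edgeR adjusted p = 0.457), and the gene passed the low-count filter there only at WT levels. A neighbouring DTC-named model, LOC_Os11g25030, overlaps it by 364 bases on the same strand and had at most 1 count in any library.

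The second DTC-named member, LOC_Os05g11780, was higher in roots. OX6 roots held 195 ± 5.48 RPKM against 105 ± 7.96 in OX6 shoots, and WT roots 190 ± 13.0 against 101 ± 14.3 in WT shoots. Its log2 difference was 0.87 ± 0.102 in OX6 (edgeR adjusted p = 4.45e-07) and 0.89 ± 0.102 in WT (edgeR adjusted p = 3.33e-07). The pair together summed to 195 ± 5.46 RPKM in OX6 roots, 190 ± 13.0 in WT roots, 198 ± 11.1 in OX6 shoots and 206 ± 23.7 in WT shoots. Roots therefore drew 99.9% of the summed DTC level from 1 gene in either genotype, and shoots drew on both genes, with 53.0% of the OX6 shoot sum from LOC_Os05g11780 and 51.1% of the WT shoot sum from LOC_Os11g24450.

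Opposite organ preferences were also seen among the uncoupling proteins, which dissipate the proton gradient in mammals and carry aspartate, glutamate and dicarboxylates in Arabidopsis. LOC_Os11g48040, named uncoupling protein 1, had 72.2, 69.8 and 66.6 RPKM in OX6 roots against 14.5, 17.3 and 16.1 in OX6 shoots. WT roots had 71.4, 69.4 and 73.9 RPKM against 18.9, 17.1 and 22.4 in WT shoots. The organs were well apart in either genotype, and the log2 difference was 2.11 ± 0.102 in OX6 (edgeR adjusted p = 1.71e-12) and 1.86 ± 0.100 in WT (edgeR adjusted p = 8.47e-12). The second gene of that name, LOC_Os12g34870, was lower in roots, with 2.0 ± 0.728 RPKM against 4.23 ± 0.886 in OX6 and 1.87 ± 0.0703 against 4.08 ± 1.02 in WT. It overlaps a phenylalanine--tRNA ligase model by 429 bases on the opposite strand, and the strand setting of the counting is not given in the sources used here. The ligase model had 558 to 649 counts in root libraries and 2383 to 4606 in shoot libraries. LOC_Os12g34870 had 99 to 199 and 152 to 432, and the part of ligase reads in its organ difference was not tested. The abundant uncoupling protein 5 gene, LOC_Os08g37370, was lower in WT roots than in WT shoots, at 67.4 ± 5.47 against 92.5 ± 7.49 RPKM (edgeR adjusted p = 0.000206). In OX6 it was not called, at 69.1 ± 5.43 RPKM in roots and 77.1 ± 5.96 in shoots. The interaction for this gene was 0.30 with an edgeR adjusted p of 0.337, so the genotypes were not shown to differ.

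Among cofactor carriers, 8 of 11 were called lower and 2 higher in roots in either genotype, 72.7% lower beside 36.5% of all genes in OX6 and 35.4% in WT. Amino acid and carnitine-like carriers had 6 of 8 lower and none higher in OX6, and 5 of 8 lower and 1 higher in WT. That is 75% lower in OX6 and 62.5% in WT, beside the same shares of all genes, and 12.5% higher in WT, beside 37.6%. The leading genes of the cofactor class share the name peroxisomal NAD carrier, whose Arabidopsis counterpart PXN imports NAD into peroxisomes. LOC_Os09g33470 (chromosome 9, 19728409 to 19735541, minus strand) had 0.142, 0.208 and 0.285 RPKM in OX6 roots against 68.9, 70.1 and 66.8 in OX6 shoots. WT roots had 0.336, 0.100 and 0.199 RPKM against 81.7, 78.7 and 84.7 in WT shoots. Its log2 difference was -8.33 in OX6 (edgeR adjusted p = 3.65e-17) and -8.60 in WT (edgeR adjusted p = 2.51e-17), and its size rests on few root reads. LOC_Os02g13170 was less extreme, with 5.17 ± 0.0799 RPKM in OX6 roots against 65.6 ± 0.994 in OX6 shoots and 4.91 ± 0.629 in WT roots against 69.4 ± 6.59 in WT shoots.

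The third gene with that name, LOC_Os03g15860, was higher in roots, at 22.3 ± 2.13 RPKM against 12.9 ± 1.64 in OX6 and 21.1 ± 0.486 against 12.7 ± 0.460 in WT. In roots it made up 80.6% of the name's summed level in OX6 and 80.4% in WT. The sum of the 3 genes was 27.7 ± 2.12 RPKM in OX6 roots against 147 ± 2.69 in OX6 shoots, and 26.2 ± 0.801 in WT roots against 164 ± 7.26 in WT shoots. Unlike the DTC pair, this set was not level between organs in sum.

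**Figure D5:**
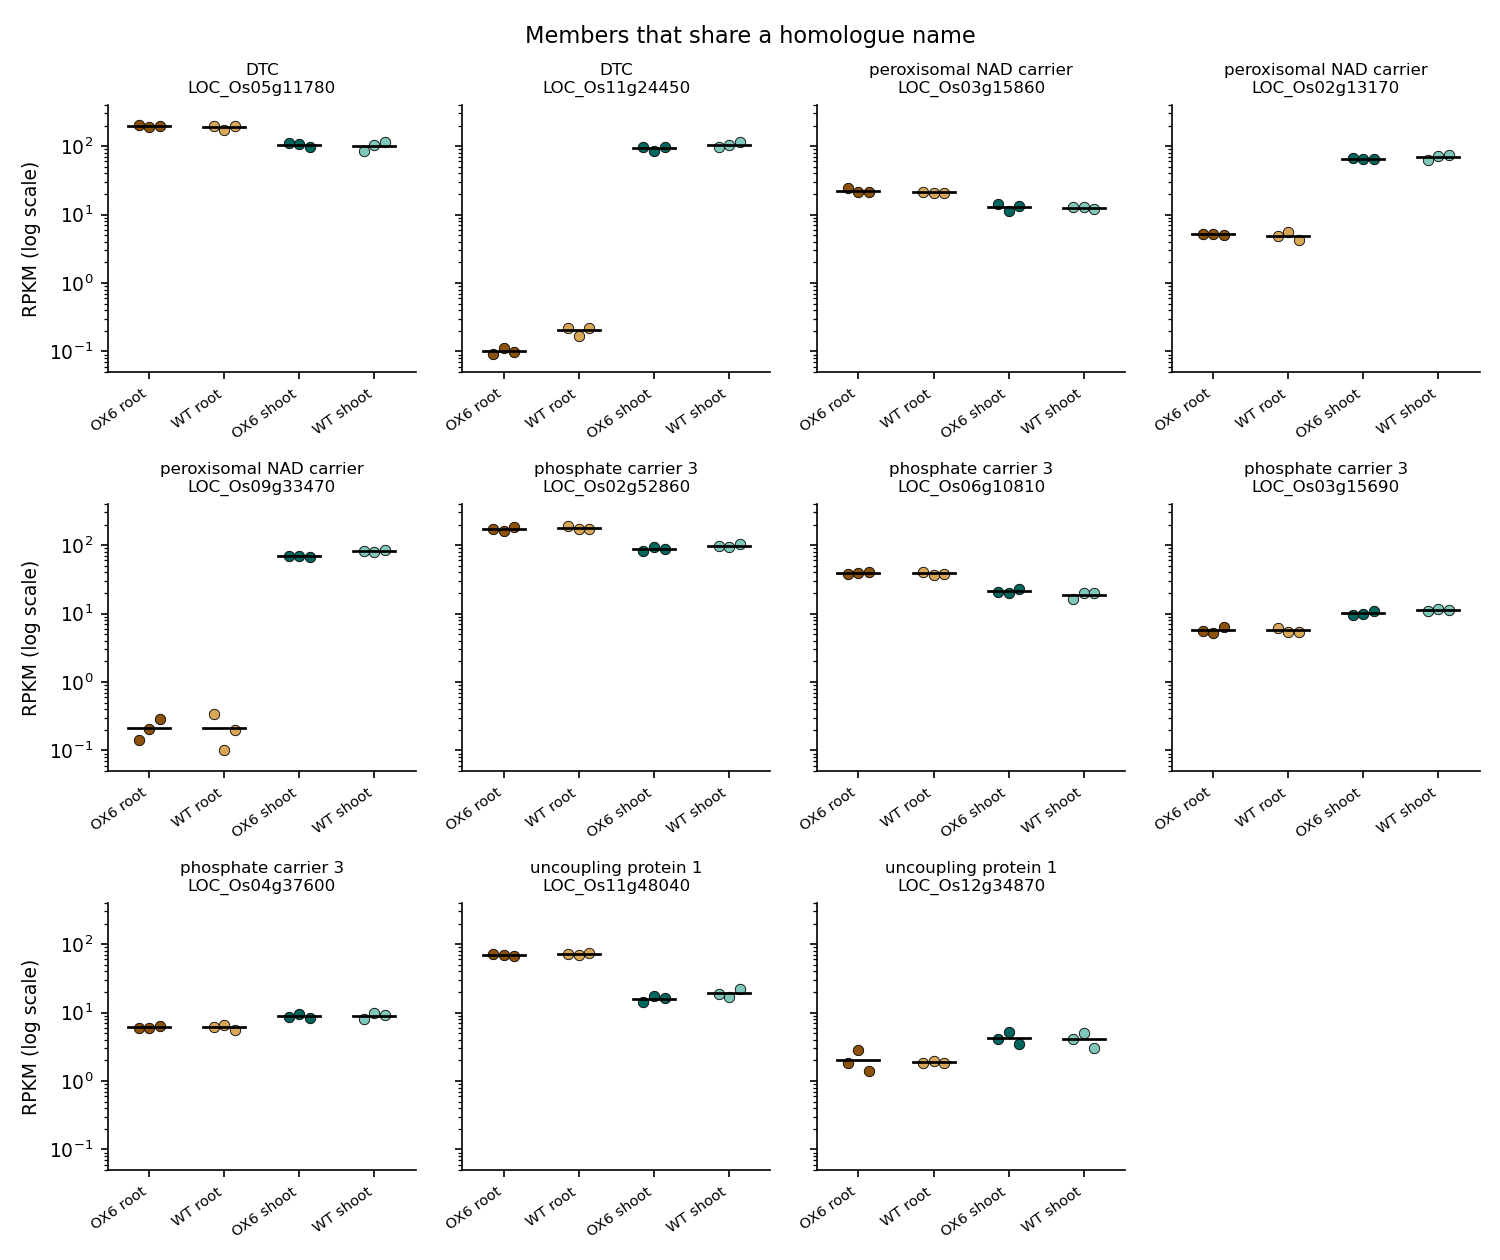
RPKM (y axis, log scale) of 11 members that share 4 homologue names, with 1 panel per gene, points for the 3 libraries of each group and lines at the mean. Within each name some genes lie higher in roots and others in shoots, such as LOC_Os05g11780 at 190 RPKM in WT roots against 101 in WT shoots and LOC_Os11g24450 at 0.204 against 105.

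The S-adenosylmethionine carrier LOC_Os05g29860 (chromosome 5, 17276735 to 17280614, minus strand) belongs to a family that brings the methyl donor into plastids and mitochondria. It had 5.14, 4.80 and 5.27 RPKM in OX6 roots against 39.6, 46.5 and 52.9 in OX6 shoots. WT roots had 4.58, 4.27 and 4.17 RPKM against 41.4, 45.5 and 40.2 in WT shoots. The log2 difference was -3.21 ± 0.111 in OX6 (edgeR adjusted p = 1.33e-14) and -3.31 ± 0.112 in WT (edgeR adjusted p = 9.79e-15). The other S-adenosylmethionine carriers, LOC_Os07g19460, LOC_Os11g01270 and LOC_Os12g01240, were also called lower in roots in both genotypes, by 0.47 to 1.20 on the log2 scale. Against this trend the thiamine pyrophosphate carrier LOC_Os01g70800, whose substrate is the cofactor of pyruvate and oxoglutarate dehydrogenases, was higher in roots. It had 17.6 ± 0.557 RPKM in OX6 roots against 7.78 ± 0.595 in OX6 shoots and 18.1 ± 1.07 in WT roots against 6.62 ± 0.601 in WT shoots, a log2 difference of 1.16 in OX6 and 1.43 in WT.

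Phosphate carriers, which import the phosphate used by ATP synthase, split within one name. The 4 genes named phosphate carrier 3 held 2 that were called higher in roots, LOC_Os02g52860 and LOC_Os06g10810, and 2 called lower, LOC_Os03g15690 and LOC_Os04g37600, in either genotype. LOC_Os02g52860 was the leading one, with 173, 161 and 183 RPKM in OX6 roots against 81.1, 95.0 and 87.8 in OX6 shoots. WT roots had 188, 173 and 174 RPKM against 95.8, 93.9 and 104 in WT shoots. Its log2 difference was 0.95 ± 0.0883 in OX6 (edgeR adjusted p = 2.08e-08) and 0.84 ± 0.0881 in WT (edgeR adjusted p = 1.04e-07). LOC_Os06g10810 had 39.0 ± 1.47 RPKM in OX6 roots against 21.0 ± 1.38 in OX6 shoots and 38.5 ± 2.01 in WT roots against 18.7 ± 2.02 in WT shoots. LOC_Os03g15690 was the reverse at a lower level, with 5.72 ± 0.606 RPKM in OX6 roots against 10.04 ± 0.773 in OX6 shoots and 5.68 ± 0.502 in WT roots against 11.3 ± 0.329 in WT shoots. In sum the 4 genes reached 223 ± 12.7 RPKM in OX6 roots against 128 ± 7.48 in OX6 shoots, and 229 ± 10.6 in WT roots against 137 ± 7.01 in WT shoots.

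Adenine nucleotide carriers held 4 members called higher and 7 called lower in OX6 roots than in OX6 shoots, and 4 higher and 9 lower in WT. In OX6 these were 25% higher and 43.8% lower, beside 37.3% and 36.5% of all genes. In WT they were 25% and 56.2%, beside 37.6% and 35.4%. The leading ADP,ATP carrier LOC_Os02g48720 was higher in roots by 1.36 ± 0.0956 on the log2 scale in OX6 (edgeR adjusted p = 4.10e-10) and by 1.18 ± 0.0952 in WT (edgeR adjusted p = 2.86e-09). The second mitochondrial ADP,ATP carrier, LOC_Os05g23720, was lower in roots, at 69.1 RPKM against 88.5 in OX6 and at 69.2 against 96.7 in WT. LOC_Os11g43960, named ER-ANT1 after the adenylate carrier of the endoplasmic reticulum in Arabidopsis, had 2.77 ± 0.231 RPKM in OX6 roots against 6.68 ± 0.195 in OX6 shoots and 2.52 ± 0.418 in WT roots against 8.83 ± 1.23 in WT shoots. Its log2 difference was -1.28 ± 0.152 in OX6 and -1.83 ± 0.153 in WT. The thylakoid ADP,ATP carrier LOC_Os01g16040 was likewise lower in roots, at 14.3 RPKM against 25.7 in OX6 and 12.8 against 24.2 in WT.

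In the remaining classes the carnitine-like LOC_Os10g42299 and the mitoferrin LOC_Os03g18550 were both lower in roots. LOC_Os10g42299 had log2 differences of -0.87 ± 0.104 in OX6 and -1.36 ± 0.104 in WT. LOC_Os03g18550 had -1.32 ± 0.0940 in OX6 and -1.69 ± 0.0945 in WT. MTM1-named LOC_Os08g29720 was higher in roots by 0.98 ± 0.0881 in OX6 and 0.95 ± 0.0878 in WT, and the second MTM1-named gene was lower in roots in both. LOC_Os01g38990 is named Graves disease carrier protein after the mammalian carrier linked to mitochondrial coenzyme A. It had 11.5 ± 0.805 RPKM in OX6 roots against 4.59 ± 0.982 in OX6 shoots and 12.1 ± 0.833 in WT roots against 4.23 ± 0.337 in WT shoots.

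Across the family, 13 homologue names were shared by 2 or more members, 32 members in all. In OX6, 6 of these 13 names held at least 1 member called higher and 1 called lower in roots than in shoots, and in WT 8 did. The 8 are the DTC, uncoupling protein 1 and 5, phosphate carrier 3, peroxisomal NAD, MTM1, calcium-binding SCaMC-1 and SLC25A44 names, and those of uncoupling protein 5 and SLC25A44 are not among the 6. This count was made after the values were seen and has no test. The background of all genes was 37.3% higher and 36.5% lower in OX6 roots, and 37.6% and 35.4% in WT roots. Sets of unrelated genes can therefore hold calls both ways, and how often they do was not tested. The count describes opposite organ preferences within a name and says nothing of how closely the genes of a name are related.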

How the data were processed

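Per the submitters' processing notes, which name HISAT2 2.0.5 and featureCounts 1.5.0-p3, the authors aligned and counted reads, and the deposited values are unnormalized counts for each gene model. Which build, annotation and strand setting they used is not given in the sources used here. Positions, gene lengths, homologue names and Pfam domains are those of the deposited file. Groups and replicate numbers came from the sample titles, and the letter P in them is not explained.

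Genes were tested with edgeR 4.0.16 in R 4.3.3 by the quasi-likelihood test with TMM normalization, after filterByExpr at a minimum count of 10 and a total of 15. Each organ had a fit of 6 libraries, and 1 fit of all 12 gave the interaction and the organ comparisons. Tests were two-sided. A gene was called where its p-value, after Benjamini-Hochberg adjustment across every tested gene, was under 0.05. Biological coefficients of variation of the fits were 9.61% (roots), 16.2% (shoots) and 13.2% (12 libraries). CPM were scaled within an organ and RPKM over the 12 libraries, by TMM. Dividing the size of a log2 fold change by the square root of its F statistic gave the standard error. This comes out too small for very large differences that rest on few reads. It is therefore not given for the organ differences of LOC_Os11g24450 and LOC_Os09g33470. Chi-square per gene between replicates was 5.308 to 28.02, so each library was counted once. Scripts were tested on simulated data.

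The members, classes, context lists and alternatives were chosen with earlier results of these data known. Values are given for each member called between genotypes or in the interaction, the most abundant of each class, LOC_Os03g07890, the 5 largest organ differences each way in WT at 5 RPKM or more and the 3 largest genotype differences in each organ at 5 CPM or more. Further members named were chosen after their values were seen. Alternatives used DESeq2 1.42.0 and limma 3.58.1, other scalings, filters and thresholds, a replicate block, and each library left out. A reference gene table matched 0 members and was not used here.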

Additional observations from a re-analysis of the deposited data

Results flagged for a closer look

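LOC_Os03g07890, named Solute carrier family 25 member 44, was the member whose OX6 effect differed between organs by a test of the difference itself, with a log2 interaction of -1.519 (edgeR adjusted p = 2.51e-05). OX6 was below WT in 3 of 3 root libraries and above it in 3 of 3 shoot libraries. Groups of 3 libraries are too small for a test of single outlying libraries.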

How the results depend on the processing

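The number of members called in roots was 1 under each of the 15 alternatives run. In shoots it was 1 to 3 when 1 library was left out, against 3 in the full fit, and fell to 1 without OX6 shoot replicate 2. In the interaction it was 2 under DESeq2 and 1 to 2 with 1 library left out, against 1 in the full fit, reaching 2 without WT shoot replicate 3 or OX6 shoot replicate 3. In each of these 3 fits the added member was LOC_Os10g42299, with adjusted p of 0.0339, 0.0491 and 0.0383. LOC_Os03g18550 also lost its shoot call under a minimum absolute log2 fold change of 0.5. Organ calls ranged from 37 to 46 members in OX6 and 38 to 49 in WT. The cause of these shifts was not tested. No sign changed.

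Upper-quartile scaling moved the median log2 organ difference of all genes from 0.03 to 0.18 in OX6 and from 0.05 to 0.15 in WT. It kept 41 of 44 organ calls of members in OX6 and 43 of 45 in WT, and added 2 in OX6 and 4 in WT, LOC_Os05g46230 among the 4. Counts over all genes moved more. Roots gave 452 with a log2 fold change of at least 0.5, 293 in the 12-library fit and 407 to 773 with 1 library left out, against 753. Shoots gave 2459 in the 12-library fit and 708 without OX6 shoot replicate 3, against 1481. The interaction gave 1207 under DESeq2, against 572, and 35.1% of its calls were positive in the main test, 47.1% under upper-quartile scaling and 49.8% under DESeq2.

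Same-numbered libraries did not deviate together, with correlations of -0.0594 to 0.0508, so the numbers were not taken as pairs. With a replicate block the members called were 1 in roots, 3 in shoots, 1 in the interaction, 44 in the OX6 organ comparison and 45 in WT. Depth limits the scarce members, such as LOC_Os09g38100 and LOC_Os05g46220, whose differences are not well estimated. LOC_Os05g46220, with 16 to 87 counts per library, also overlaps LOC_Os05g46230, which had 1823 to 3863. The strand setting is not given, and the part of this overlap in its counts was not tested.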

Other observations

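Neighbours of LOC_Os03g07890 on chromosome 3 were looked at after its values were seen. Of the 5 gene models on each side, 7 were tested in roots and 7 in shoots. In roots 2 of the 7 were called, both lower in OX6, where 2.83% of all genes were called and 1.64% were called lower. These were LOC_Os03g07870, with a log2 fold change of -0.32 (edgeR adjusted p = 0.0477), and LOC_Os03g07880, named nuclear transcription factor Y subunit A-6, with -0.36 (edgeR adjusted p = 0.00745). In shoots none of the 7 was called in edgeR, beside 5.64% of all genes. Whether so small a set departs from the background was not tested. Neither of the called neighbours passed in the interaction, with edgeR adjusted p of 0.168 and 0.120.

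The alternative oxidase model LOC_Os06g07570 was called in the interaction (edgeR adjusted p = 0.0323). It averaged 4.90 ± 1.31 RPKM in OX6 roots against 4.64 ± 0.756 in WT roots, and 0.583 ± 0.147 in OX6 shoots against 0.0283 ± 0.0489 in WT shoots, a level that rests on almost no reads.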
